A study of Mus musculus with 7 samples.

Results

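Compact CTCF footprints are places where the exonuclease stops on the DNA strands lay unusually close together. They were taken from the CTCF ChIP-exo 5.0 library of a 2.7 million-cell mouse liver sample. A pair joined a peak of 5′ read ends on the forward strand with a peak on the reverse strand whose centre was 10 to 80 bp downstream. Each peak held at least 2 tags, pairs with the largest summed tags were matched first, and each peak entered 1 pair. A tag is a sequenced 5′ end, and a pair's centre is called a site. The compact pairs were chosen by their measured distance of 10 to 29 bp and by their measured 50 or more summed tags, and lay on the 19 autosomes. They numbered 1566 of 11557 autosomal pairs with 50 or more tags (13.6%), from 157570 pairs and 1392773 peaks in that library. The number rests on the matching, and was 3638 when the nearest peaks were paired first. The other 9991 pairs, at 30 to 80 bp, served as the comparison and are called the other sites. Distance and tags in this library are therefore descriptions and carry no test.

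The series held 7 CTCF libraries, with 1 library per condition. They came from brain, lung, kidney and liver organ, and from liver cells in 3 amounts, the 2.7 million-cell, 270 thousand-cell and 27 thousand-cell libraries. The study's methods prepared liver as tissue and estimated its cell numbers from wet weight. All libraries were labelled wildtype mouse, and the study's methods gave adult male mice of 16 weeks. The antibody is given as Millipore 07-729 against CTCF, which the methods name for K562 samples. The labels also name IgG, and which holds was not settled here. The labels tie no library to a mouse, and none of the 7 libraries was named as a control. The liver cell libraries form a titration and may share chromatin with the library that chose the sites, so they need not be independent of it. The deposited lists held 35594 to 6592538 tags, and the 2.7 million-cell library was the deepest. In that library 33.1% of peaks held all their tags at a single position, against 72.8% to 91.5% in the other 6.

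CTCF is a zinc-finger protein that binds a long, asymmetric DNA motif and helps to arrange chromosomes into loops. In ChIP-exo, lambda exonuclease digests each strand of the immunoprecipitated DNA from its 5′ end until it meets a crosslinked protein. A forward stop and a reverse stop thus mark the borders of a crosslinked region. Because the central zinc fingers read a conserved core of the motif in a fixed direction, the borders on the left and right of the core need not be alike.

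The sequences below show where the stops fell around that core. They were read from RefSeq promoter windows of GRCm38.p6 (mm10), each running from 250 bases before to 50 bases after a gene start. Both stops lay inside such a window at 37 compact sites, and all 37 had no dense cluster of peaks around them. The core searched was CCNNNAGNNGGC on both strands, where N is any base. The capitals mark the core, every sequence is written on the core's strand, and up to 30 bases are shown on each side. The 8 compact sites with the most tags and exactly 1 core within 40 bp are shown, so that the position of each stop can be counted.
Gm17197: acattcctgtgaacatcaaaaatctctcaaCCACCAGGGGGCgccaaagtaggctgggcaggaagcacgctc
Vmn2r29: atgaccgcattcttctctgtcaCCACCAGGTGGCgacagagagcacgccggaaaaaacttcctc
Aqr: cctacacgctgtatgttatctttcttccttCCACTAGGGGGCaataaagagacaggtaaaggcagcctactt
Stxbp3: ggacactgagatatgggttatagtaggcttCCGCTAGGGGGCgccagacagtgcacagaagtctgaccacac
B230206L02Rik: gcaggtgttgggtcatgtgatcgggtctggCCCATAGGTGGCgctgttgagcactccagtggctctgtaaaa
Rint1: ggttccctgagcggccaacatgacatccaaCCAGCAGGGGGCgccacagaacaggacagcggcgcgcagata
Gaa: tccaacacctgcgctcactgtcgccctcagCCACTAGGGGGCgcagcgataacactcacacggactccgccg
Gm33663: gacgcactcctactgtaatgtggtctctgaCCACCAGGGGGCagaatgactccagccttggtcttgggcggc

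In the promoter of Gaa, which encodes lysosomal acid alpha-glucosidase, the sequence shown is chr11:119267906-119267977 on the plus strand. The stop before the core was 7 bp upstream of its first base, and the stop after the core was 8 bp past its last base. At Rint1, a vesicle-tethering factor (chr5:23787597-23787668, plus strand), these were 5 and 11 bp. At Stxbp3, a syntaxin-binding protein (chr3:108840661-108840732, minus strand), they were 8 and 10 bp. At Aqr, an RNA helicase of the spliceosome (chr2:114175382-114175453, minus strand), they were 6 and 7 bp. Whichever strand held the core, both stops of these pairs hugged it, at 5 to 8 bp before and 7 to 11 bp after.
At the vomeronasal receptor gene Vmn2r29 (chr7:7278476-7278539, minus strand) the stops were 5 bp before and 11 bp after the core. At Gm17197 (chr19:56356586-56356657, plus strand), which lies inside Nrap, they were 5 and 10 bp. At B230206L02Rik (chr11:94133390-94133461, plus strand) they were 1 and 14 bp, and at Gm33663 (chr7:143466468-143466539, minus strand) 6 and 7 bp.

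For contrast, the 4 other sites with most tags among pairs of 38 to 44 bp and exactly 1 core are printed in the same way.
Sh3gl1: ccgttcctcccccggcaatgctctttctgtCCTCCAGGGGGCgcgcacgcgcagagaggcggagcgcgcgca
Gm40002: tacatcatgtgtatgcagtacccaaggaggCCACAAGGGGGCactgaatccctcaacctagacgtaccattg
Prmt3: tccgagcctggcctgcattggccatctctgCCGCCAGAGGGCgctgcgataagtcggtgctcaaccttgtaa
Crbn: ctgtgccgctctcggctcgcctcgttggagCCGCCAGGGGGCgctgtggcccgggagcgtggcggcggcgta

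At Prmt3, a protein arginine methyltransferase (chr7:49778212-49778283, plus strand, 41 bp between stops), the stop after the core was 10 bp past its last base. The stop before the core was 20 bp upstream of it. At Sh3gl1, an endophilin (chr17:56036700-56036771, minus strand, 42 bp), the values were 10 bp after and 21 bp before. At Crbn, a substrate receptor of an E3 ubiquitin ligase (chr6:106800122-106800193, minus strand, 39 bp), they were 13 and 15 bp. At Gm40002 (chr2:170651636-170651707, plus strand, 41 bp) they were 6 and 24 bp.

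The same was seen over all promoter sites with exactly 1 core. The stop after the core was at a median of 10 bp (quartiles 8 and 11) at 21 compact sites and at 10 bp (8 and 11) at 109 other sites. The stop before the core was at a median of 6 bp (5 and 6) at the compact sites and at 20 bp (16 and 25) at the other sites. It lay 0 to 10 bp before the core at 20 of 21 compact sites and at 14 of 109 other sites. Compact and other pairs thus differed in the border before the core, while the border after it lay at the same place. The rule fixed the sum of both sides and the length of the core did not vary. It did not fix which side was short, and this split is given as a description with no test. The exception was Galt, which encodes galactose-1-phosphate uridylyltransferase. Its pair lay beside the core, with the stops at -11 and 29 bp.

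**Figure D1:**
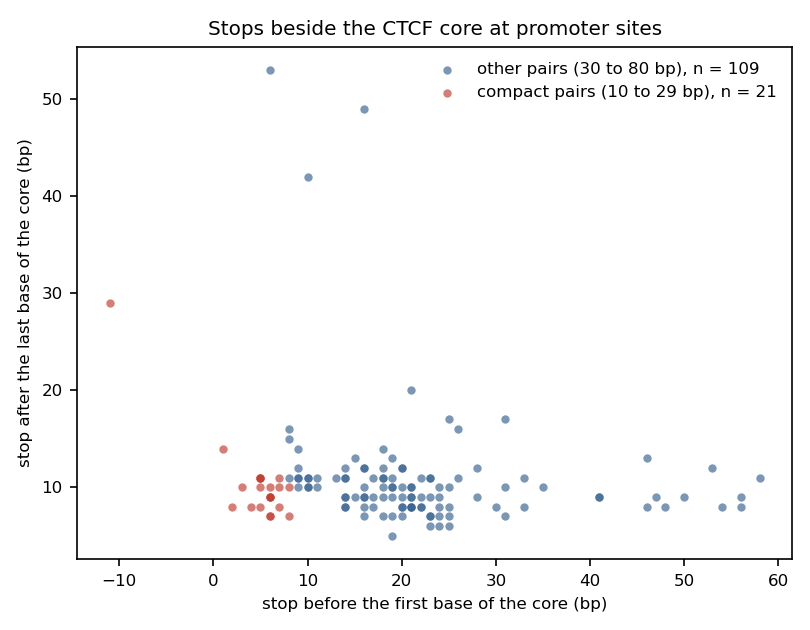
Each point is a site in a promoter window with exactly 1 CTCF core; the horizontal axis gives the distance in bp from the stop to the core's first base, and the vertical axis the distance in bp from the core's last base to the other stop, on the core's strand. The 21 compact sites (red) and the 109 other sites (blue) share a vertical position near 10 bp, whereas 20 of the 21 compact sites sit at 0 to 10 bp on the horizontal axis.

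The stops before and after the core did not carry equal tags. The stop before the core held a median of 30.2% of the pair's tags at compact sites and 28.1% at the other sites, so the stop after the core was the stronger one in both. The stop before the core was the weaker stop at 18 of 21 compact sites. It was the stronger stop at the remaining 3, and at 16 of 109 other sites, so this was not particular to compact sites. B3glct, a glucosyltransferase gene, had 9 tags before and 88 after the core, and Nob1, a ribosome assembly factor, had 15 and 78. Rpl5, a ribosomal protein gene, had 42 and 57 tags, and Bbc3, a pro-apoptotic BCL2 family gene, was among the 3 with more tags before the core, at 34 against 21. The median spread (SD) of tag positions within the stop before the core was 3.41 bp at compact and 4.91 bp at other sites. Within the stop after the core it was 3.96 and 3.76 bp. The core ran in the direction of the gene at 16 of 21 compact and 79 of 109 other sites. The 20 bases before the core had a median GC content of 55% in both classes, and the 20 bases after it 65% and 60%.

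The core was about as frequent in both classes. It lay within 40 bp of the centre at 22 of 37 compact sites (59.5%, 95% Wilson interval 43.5 to 73.7%) and at 113 of 191 other sites (59.2%, 52.1 to 65.9%). It was present in the middle 92 bp of 2.93% of all 32851 promoter windows, and anywhere in the 300 bp of 8.61% of them. With a further letter fixed (CCANNAGNNGGC) it was present at 37.8% of compact and 31.9% of other promoter sites, and anywhere in 2.43% of all windows. The 15 compact promoter sites without the core had no match to these letters, among them those at Ddx18, an RNA helicase gene (171 tags), and at 4930432J09Rik (167 tags). The 37 sites are promoter sites, and sequence around the remaining compact sites was not analysed here.

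The position of the stops beside the core was then measured in the libraries that the rule did not use. At each side the peak with most tags on the expected strand was taken, from 6 bp inside to 60 bp outside the core's edge. Before the core it lay closer at compact sites in each of the 4 libraries with at least 5 such sites. The medians were 8.5 against 23 bp in brain, 17 against 26 bp in lung, 14 against 25 bp in kidney and 22 against 29 bp in the 270 thousand-cell library. The mean difference was -10.4 bp (lower in 4 of 4 libraries, exact two-sided sign-flip permutation test over libraries, p = 0.125, the smallest p that 4 libraries allow). The library of liver organ had 4 compact sites on each side and did not enter, with 22.5 against 24 bp before and 14.5 against 19 bp after the core. After the core the medians in the same 4 libraries were 26 against 19.5 bp, 16 against 19 bp, 18 against 19 bp and 13.5 against 11 bp, a mean difference of 1.25 bp (p = 0.75, exact). These medians rest on 5 to 15 compact sites per library and side. With 4 libraries a threshold of 0.05 cannot be reached.

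In the library that chose the sites, the distances over the genome had a main mode at 41 bp and a shoulder at 29 bp. These counts come from matching the largest summed tags first, and were not repeated with the nearest peaks paired first. The pairs were split by whether they lay in dense bins, which are 10 kb stretches with at least 20 peaks in each library other than that of the 27 thousand-cell library. Outside them were 1372 compact pairs of 10805 (12.7%), and inside the 13 autosomal dense bins 194 of 752 (25.8%). Outside dense bins the number of pairs rose to 273 at 29 bp, fell to 197 at 33 bp and rose again to 684 at 41 bp. The compact pairs had a median distance of 27 bp (quartiles 25 and 28), and 1117 of 1372 (81.4%) lay at 25 to 29 bp. Only 75 were at 10 to 21 bp. The limit of the rule ran through this shoulder. The 273 pairs at 29 bp had a median of 98 tags and the 238 pairs at 30 bp, just outside, a median of 94.5 tags. At the tag limit, 71 compact pairs had 50 to 52 tags, while 107 pairs of the same distances had 47 to 49 tags. The low at 33 bp was not seen in the 270 thousand-cell library. Outside dense bins and with no tag minimum it had 36, 51 and 109 pairs at 29, 33 and 41 bp. In the same order brain had 151, 158 and 159, lung 47, 72 and 63, kidney 62, 46 and 77, and liver organ 25, 30 and 24.

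**Figure D2:**
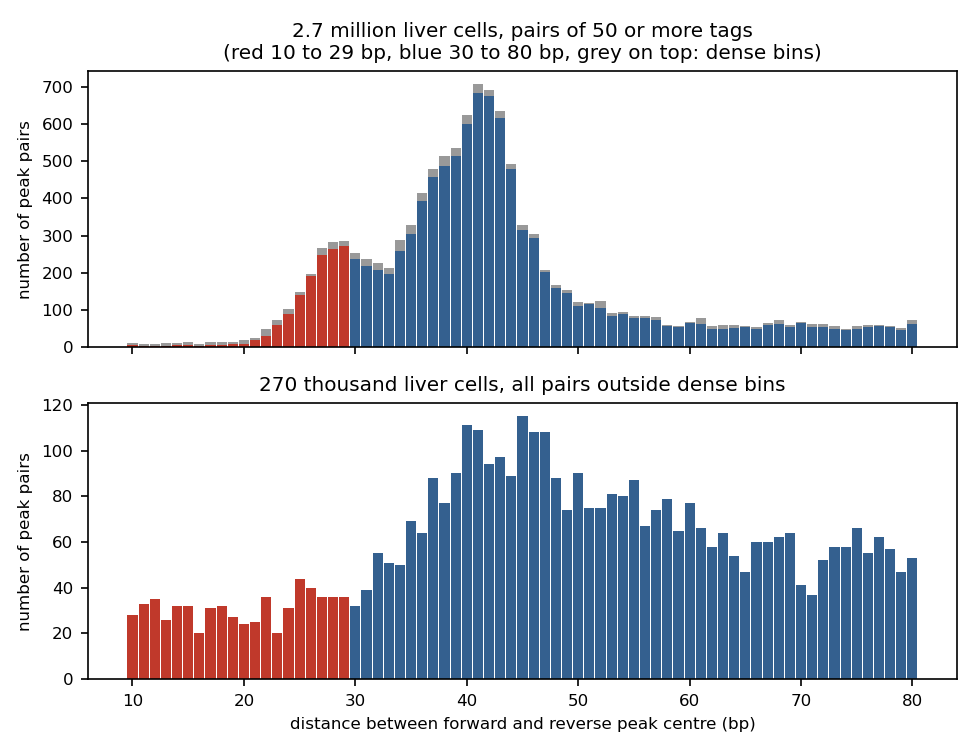
Number of peak pairs at each distance between stops (bp) in the 2.7 million-cell library with 50 or more tags (top) and in the 270 thousand-cell library with no tag minimum (bottom); red marks 10 to 29 bp, blue 30 to 80 bp and grey the pairs in dense bins. In the top panel a shoulder at 29 bp (273 pairs outside dense bins) is divided from the main mode at 41 bp (684 pairs) by a low at 33 bp (197 pairs). The bottom panel has no such low, with 36, 51 and 109 pairs at 29, 33 and 41 bp.

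The rule kept pairs of 50 or more tags, so weak pairs of any distance were left out in advance. Outside dense bins the compact pairs had a median of 92 tags (quartiles 67 and 130, highest 1154). The other pairs had 79 tags (61 and 110, highest 1193). The compact share was 10.6% of 7262 pairs with 50 to 99 tags, 16.5% of 3109 pairs with at least 100 but under 200 tags and 21% of 434 pairs with 200 or more. The forward strand held a median of 49.9% of a pair's tags in compact and 50% in other pairs, but single pairs were often unequal. The quartiles in compact pairs were 31.6% and 69.1%, and a strand held under 20% of the tags in 20.8% of compact and 17.5% of other pairs. The stops were narrower in compact pairs, with a median SD of tag positions of 3.88 bp against 4.30 bp. Summed over sites, the pairs' own stops held 52.2% of the tags within 100 bp of the centres at compact sites and 52.1% at the others, with a median of 8 further peaks at each. All these values come from the library that chose the pairs.

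An adjacent strong pair was somewhat more frequent at compact sites. Another pair of 50 or more tags lay within 100 bp of 170 of 1372 compact sites (12.4%, 95% interval 10.8 to 14.2%) and of 834 of 9433 other sites (8.84%, 8.29 to 9.43%). Leaving out dense bins did not remove every cluster of compact pairs. Runs of neighbouring compact pairs remained near Gm40552 and, in a longer run, on chromosome 1. Such pairs enter these shares, and the intervals treat them as independent sites. The shares were not recounted without them. A further forward stop 11 to 20 bp outside the forward stop was present at 13.8% of compact and 12.5% of other sites, and on the reverse side at 14.2% and 11.9%. Where present, its median tags were 68.8% of those of the compact pair's own forward stop. On 1 strand no peaks lay closer than 11 bp, so nearer stops could not be listed apart. By chromosome, the compact share outside dense bins ran from 9.38% on chromosome 13 to 16.8% on chromosome 19.

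The compact sites with most tags outside dense bins were near genes of many kinds. At the kidney salt cotransporter gene Slc12a3, the pair inside the gene had 152 forward and 277 reverse tags at 29 bp. The tags within 100 bp there were 15 in brain, 11 in lung, 9 in kidney, 0 in liver organ, 557 in the 2.7 million-cell library, 41 in the 270 thousand-cell library and 0 in the 27 thousand-cell library. The site at 4930467E23Rik (393 pair tags, 28 bp) had 31, 32, 25, 6, 604, 35 and 0 tags in that order. Both had listed tags in most libraries. They were chosen for their tags in the deepest library, so the order of libraries is not read from them.
At Iffo2, an intermediate filament family gene, the pair was lopsided, with 19 forward and 290 reverse tags at 27 bp, and the libraries had 52, 41, 13, 5, 546, 22 and 0 tags. At Efna5, which encodes ephrin-A5, it was lopsided the other way, with 313 forward and 11 reverse tags at 28 bp, and 10, 8, 5, 0, 390, 34 and 0 tags. In Slc9a9, an endosomal sodium/proton exchanger gene, the pair had 337 tags at 29 bp, and the libraries had 6, 4, 0, 0, 469, 16 and 0 tags. Strong pairs could thus rest almost wholly on a stop of either strand.
Near Nenf, which encodes the secreted factor neudesin, the pair lay 17768 bp from the gene with 329 tags at 27 bp. It had no listed tags in brain, lung and kidney, 2 in liver organ, 446 in the 2.7 million-cell library, 32 in the 270 thousand-cell library and 0 in the 27 thousand-cell library. Umodl1 lay 9019 bp from a pair of 333 tags at 29 bp, with 7, 9, 4, 0, 435, 10 and 0 tags. The site near Nenf was listed in 2 of the other 6 libraries, although it was among the strongest of the deep library.

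Among these sites, those in Chl1 and Myo3a had the most tags in liver organ. In Chl1, a neural cell adhesion gene, a pair of 1154 tags at 29 bp had 701 tags in brain, 301 in lung, 1481 in kidney, 1558 in liver organ, 3152 in the 2.7 million-cell library, 801 in the 270 thousand-cell library and 70 in the 27 thousand-cell library. It had tags in every library, and its stops were broad (SD 5.07 and 5.91 bp). In Myo3a, a class III myosin gene, the pair of 424 tags was 19 bp apart with stops of 5.75 and 4.35 bp SD. Its libraries had 45, 3, 30, 26, 1338, 18 and 0 tags.

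The question whether compact sites were bound in other tissues was addressed by the share of sites with any listed peak within 100 bp of the centre. Over all 11557 sites this background was 76.3% in brain, 64.1% in lung, 57.9% in kidney, 41.5% in liver organ, 74.6% in the 270 thousand-cell library and 9.55% in the 27 thousand-cell library. Outside dense bins, a peak was present in brain at 1039 of 1372 compact sites (75.7%) and at 74.5% of the 9433 other sites. In lung the shares were 58.8% and 62.0%, in kidney 52.3% and 55.4%, and in liver organ 36.4% and 37.6%. In the 270 thousand-cell library they were 68.7% and 73.4%, and in the 27 thousand-cell library 3.64% and 3.39%. When the compact sites were moved by 5 kb, 0.219% to 4.08% had a peak. The order of the libraries was the same for both classes, and the mean difference was -1.77 percentage points (lower in 4 of 6 libraries, exact two-sided sign-flip permutation test, p = 0.1875). With the dense bins included it was 1.76 points (higher in 4 of 6 libraries, p = 0.1875, exact). In the dense bins, which were defined by many peaks in every library but the smallest, all sites of both classes had a peak in those libraries. In the 27 thousand-cell library 190 of 194 compact sites and 97.5% of the 558 other sites there had one.

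**Figure D3:**
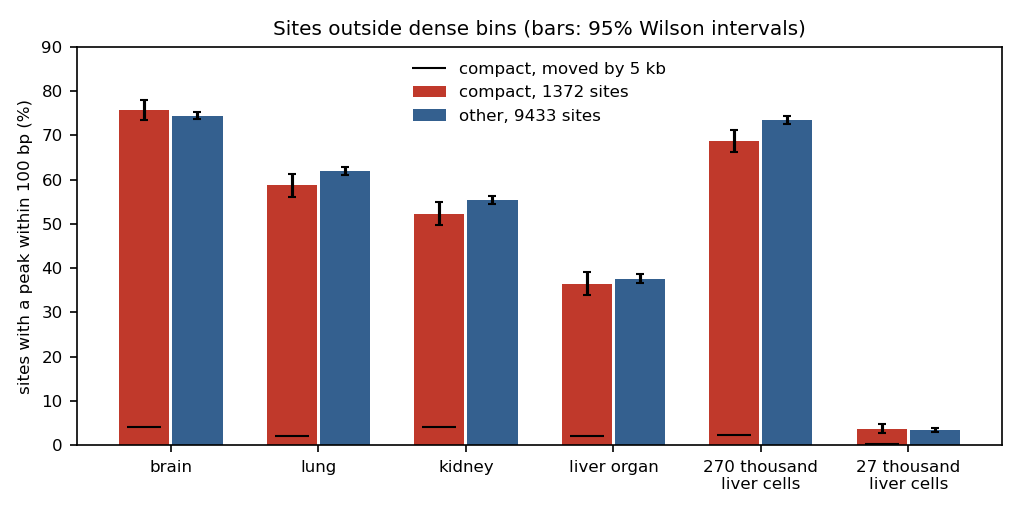
Share of sites outside dense bins with a listed peak within 100 bp (%), for 1372 compact sites (red) and 9433 other sites (blue) in each library, with 95% Wilson intervals; black lines give the compact sites after a shift of 5 kb. Both classes follow the same order of libraries, from about 75% in brain to under 4% in the 27 thousand-cell library, and the shifted sites stay at or below 4.08%.

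The spread over organs was counted outside dense bins. A peak was present in all 4 organ libraries at 250 of 1372 compact sites (18.2%) and 20.3% of the other sites, in 3 at 27.7% and 28.5%, and in 2 at 24.3% and 23.3%. It was present in 1 organ library at 256 compact sites (18.7%) and 15.9% of the others, and in none at 152 (11.1%) and 11.9%. Only the chosen library had a peak at 107 compact sites (7.80%), against 6.62% of the other sites, and all 6 had one at 15 (1.09%), against 1.26% of the others. Several of these 15 had many tags in organs as well. A site 10395 bp from BC048403 had 294 tags in brain, 277 in lung, 481 in kidney, 345 in liver organ, 167 in the 2.7 million-cell library, 27 in the 270 thousand-cell library and 4 in the 27 thousand-cell library. A site 64720 bp from Cr2, a complement receptor gene, had 48, 64, 45, 49, 920, 62 and 3 tags. The site near Gm31115 had 101, 37, 160, 176, 440, 69 and 5 tags. Among the 10 most widely seen sites, 3 lay side by side, 180541 to 180797 bp from Gm40552, and their windows overlapped.

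Whether the short distance recurred was asked with the pair of most tags centred within 25 bp of each site in the other libraries. Most medians were near the main mode. Outside dense bins the median distance at compact and other sites was 38 and 42 bp in brain (384 and 2799 sites), 42 and 42 bp in lung (144 and 1266) and 37 and 42.5 bp in kidney (121 and 816). It was 35 and 47 bp in liver organ (65 and 416) and 43 and 47 bp in the 270 thousand-cell library (287 and 2243). In the 27 thousand-cell library a single compact site outside dense bins had a pair. The mean difference over the 5 libraries was -5.1 bp (lower in 4 of 5, exact two-sided sign-flip permutation test, p = 0.125, least possible 0.0625). With the dense bins included it was -4.92 bp (lower in 6 of 6, p = 0.03125, exact, the smallest that 6 libraries allow). The 27 thousand-cell library enters that value almost wholly through dense bins, with 95 of its 96 compact sites there.

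Distances of 29 bp or less took a higher share at compact sites in 4 of 5 libraries, without passing the test. In the 270 thousand-cell library, 62 of 287 compact sites outside dense bins (21.6%, 95% Wilson interval 17.2 to 26.7%) had a pair that short, against 9.27% (8.14 to 10.5%) of the other sites. In liver organ the shares were 33.8% (23.5 to 46.0%) and 23.3% (19.5 to 27.6%), in brain 37.5% and 33.4%, and in kidney 33.9% and 31.3%. In lung the order was the opposite, 27.1% and 34.1%. Over the 5 libraries the mean difference was 4.52 points (p = 0.3125, exact). Intervals cover counting error over sites only, and these libraries had few tags per site, with a median of 0 to 6 at compact sites.

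Peaks were then placed strand by strand. In the 270 thousand-cell library, which may share chromatin with the choosing library, the forward peaks were most frequent 15 to 10 bp before the centre of compact sites (177 peaks, 129.0 per 1000 sites) and the reverse peaks 10 to 15 bp after it (190 peaks, 138.5 per 1000 sites). At the other sites the most frequent positions were 25 to 20 bp before and 20 to 25 bp after. In brain and lung the most frequent positions at compact sites were 30 to 25 bp before and 20 to 25 bp after. In kidney they were 15 to 10 bp before and 5 to 10 bp after, with 42 and 44 peaks, but the steps 25 to 20 bp before and 25 to 30 bp after were close behind with 38 and 40. The 27 thousand-cell library had 6 peaks at each of the inner positions. Liver organ had 35 peaks 30 to 25 bp before and 32 peaks 25 to 30 bp after. The differences between libraries were not tested.

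**Figure D4:**
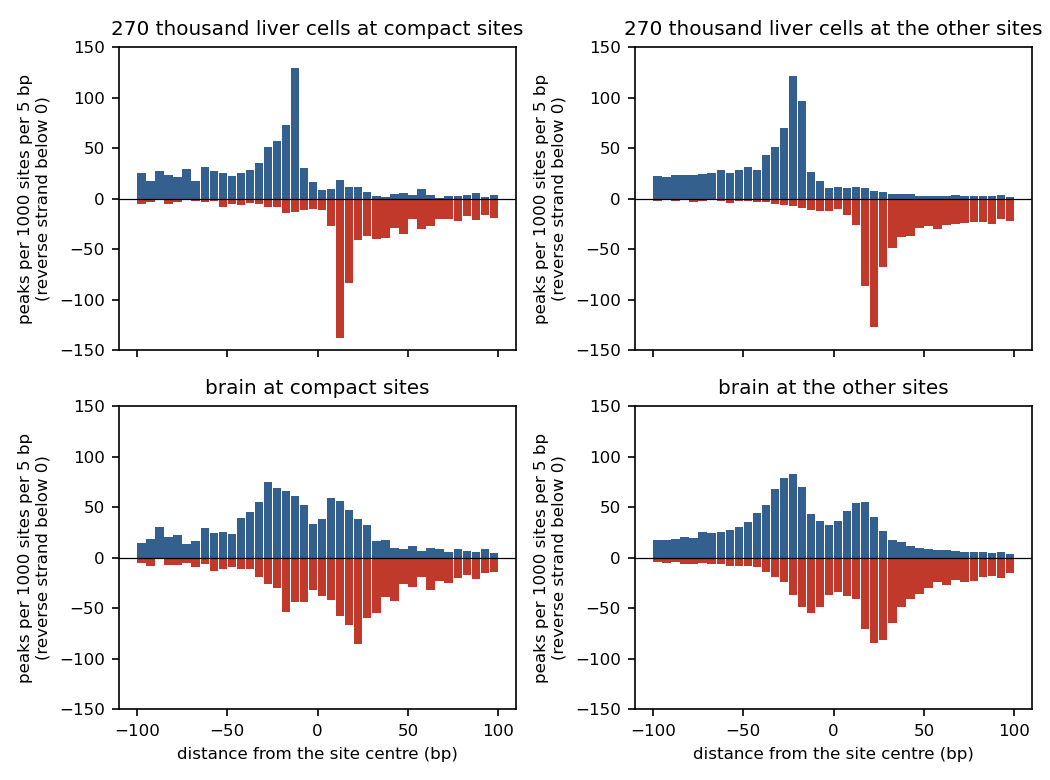
Listed peaks per 1000 sites in 5 bp steps against the distance from the site centre (bp), forward strand above 0 (blue) and reverse strand below 0 (red), in the 270 thousand-cell library (top) and brain (bottom) at compact sites (left) and the other sites (right), outside dense bins. In the 270 thousand-cell library the highest steps at compact sites are 10 to 15 bp from the centre, and at the other sites 20 to 25 bp; in brain they are at 20 to 30 bp in both classes.

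The share of sites with a stop at the same place was lower at compact sites in 5 of 6 libraries, without passing the test. A peak of the same strand within 5 bp of either stop was present in brain at 25.4% of compact and 31.4% of other sites, in lung at 12.3% and 20.1%, and in kidney at 11.9% and 14.7%. In liver organ the shares were 8.31% and 10.7%, in the 270 thousand-cell library 39.4% and 43.5%, and in the 27 thousand-cell library 1.38% and 1.20%. The mean difference was -3.82 points (lower in 5 of 6 libraries, exact two-sided sign-flip permutation test, p = 0.0625). A test of recurrence had not been planned. For both stops together it was -0.93 points (p = 0.3125, exact), and kidney and liver organ had higher shares at compact sites, 2.04% against 1.13% and 1.17% against 0.80%. After a shift of 5 kb either stop recurred at 0 to 0.364% of compact sites.

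The pairs in dense bins formed a separate kind of member. Of 194, 171 lay in 4 adjoining bins at chr9:3000001-3040000, 14 in a bin on chromosome 14, 7 on chromosome 2 and 1 each on chromosomes 6 and 16. Their median distance was 22 bp (quartiles 17 and 27), 84 were at 10 to 21 bp, and their stops were broad, with a median SD of 5.24 bp against 5.19 bp for the other pairs there. The highest lay at chromosome 2, 35648 bp from Gm33780: 2340 tags at 15 bp, with 3907, 1123, 6431, 4964, 14154, 5493 and 600 tags within 100 bp in brain, lung, kidney, liver organ and the 3 cell libraries from most to fewest cells. On chromosome 9, 189275 bp from 4930433N12Rik, a pair of 1259 tags at 19 bp had 790, 328, 1662, 903, 2704, 729 and 91 tags. Peaks in many libraries follow from how the bins were defined, which counted peaks and not their tags. Of the 194 sites 1 lay inside a gene, against 17 of the 558 other pairs in dense bins. Outside genes and over 100 kb from the nearest gene boundary, start or end, were 171 (88.1%), against 429 (76.9%). None of them lay in a promoter window, so the core was not searched there, and the CTCF label of these members was not checked by sequence.

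Compact and other sites lay at similar places relative to genes. Outside dense bins, 693 of 1372 compact sites (50.5%, 95% Wilson interval 47.9 to 53.2%) and 52.8% (51.8 to 53.8%) of the other sites lay inside 1 of 33069 RefSeq genes. Within 1 kb of a gene boundary, start or end, were 159 compact sites (11.6%, 10 to 13.4%) and 11.2% of the others. Of compact sites moved by 5 kb it was 9.33%. Sites near a gene start are thus counted among these. Within 1 kb of a gene start were 6.17% (5.00 to 7.59%) and 5.27% (4.83 to 5.75%), over the chromosomes with promoter windows. A list of 26 genes held imprinted, Hox and other loci known for CTCF, genes of CTCF and cohesin, and liver genes, and 24 of them lay on autosomes, where pairs were taken. A compact pair lay within 20 kb of 1 of them, and another pair within 20 kb of 10. The 1 was Ctcf itself: a pair of 67 tags at 26 bp lay 354 bp from its neighbour Ripor1 and had 0 tags in brain, 2 in lung, 17 in kidney, 4 in liver organ, 153 in the 2.7 million-cell library and 0 in the smaller cell libraries. Igf2 and H19, the imprinted pair controlled by CTCF, had neither kind of pair within 20 kb. Only pairs of 50 or more tags were counted. The same shares over all genes were not counted, so nothing particular to the listed loci is read from these counts.

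The tags of 4 compact promoter sites are given for each library. Gm17197 had 0 tags in brain, 8 in lung, 4 in kidney, 0 in liver organ, 412 in the 2.7 million-cell library, 12 in the 270 thousand-cell library and 0 in the 27 thousand-cell library. Gaa had 18, 19, 0, 7, 241, 10 and 0 tags in that order, and Rint1 had 12, 26, 3, 4, 299, 24 and 0. Nabp2, a single-stranded DNA binding protein gene, had 16, 19, 17, 2, 202, 7 and 0 tags. At these promoters no organ library listed more than 26 tags. The total tags of the organ libraries were also lower, at 527038 to 1635582 against 6592538, so these tags were not normalized and levels are not compared between libraries.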

How the data were processed

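Libraries were made with ChIP-exo 5.0 from brain, lung, kidney and liver of mice, with 100 mg of tissue per preparation in the study's methods. Fragments were read from both ends (40 bp each), mapped to mm10 with BWA 0.7.9a after bcl2fastq 2.16 (per the labels), and duplicates with identical ends were removed. The formaldehyde concentration is 1% in the study's methods and 0.3% per the labels, and the labels name both a CTCF antibody and IgG. The authors deposited peak lists for each strand, in which a peak spans 21 bp and carries a raw tag count (not normalized, at least 2). No other column was used besides position, strand and the SD of tag positions.

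Peaks were paired with Python 3.11.15, numpy 2.4.6 and pandas 2.3.3. Classes were compared by medians, quartiles and 95% Wilson intervals (scipy 1.17.1), which cover counting error over sites only. Sites are not replicates, so tests were exact two-sided sign-flip permutation tests over libraries. Distances were tested where both classes had at least 10 measured sites. Tests were planned for detection and for distance. Those of recurrence, of the share of short distances and of the stops beside the core were added. Dense bins were 10 kb with at least 20 peaks in 6 libraries. Gene names, promoter windows and sequences came from RefSeq tables of GRCm38.p6. These tables hold protein-coding and lncRNA genes, and promoter windows of chromosome 18 were not used here. Another 20 compact pairs on chromosome X were left out by the rule. Sites were named as the 10 with most tags outside and 5 inside dense bins, the 10 seen in most other libraries, up to 15 in promoter windows and those within 20 kb of 26 textbook genes. A site named by this rule is not reported here. B3glct, Nob1, Rpl5, Bbc3 and Galt were added after their values were seen. The members, gene list and comparisons were chosen with earlier results of these data known. The scripts were tested on simulated data.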

Additional observations from a re-analysis of the deposited data

How the results depend on the processing

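The number of compact pairs depended on how peaks were matched and on the tag minimum. It was 1566 as reported, 3638 when the nearest peaks were paired first, 2956 with at least 30 tags and 750 with at least 100 tags. It was 1372 without dense bins and 1564 without peaks of 1 position. The difference in detection was 1.76 points over all sites. It turned to -1.77 without dense bins and to -1.02 for pairs of 50 to 99 tags (both exact p above the threshold). Leaving out each library in turn, with dense bins kept, gave 0.779 to 2.57 points. In the dense bins all sites of both classes had a peak in every library but the smallest. These bins held 194 of 1566 compact and 558 of 9991 other sites, which raises the compact share more. The positive values are therefore not read as a stable result. The distance difference of -4.92 bp (exact p = 0.03125) was -5.1 bp without dense bins (p = 0.125, 5 libraries) and -1.88 bp in the organ libraries alone (p = 0.125, the least that 4 allow). Without each library in turn it was -5.7 to -3.3 bp, where 5 libraries cannot go below 0.0625. With the other windows, pairing and tag minimum it was -8.42 to -4.08 bp (each exact p = 0.03125). Of these values only -5.1 bp left out the dense bins. Outside them the difference was 0 bp in lung, and the 27 thousand-cell library had 1 measured compact site. The repeated p is therefore not read as holding outside dense bins. The share of compact sites near a gene boundary, start or end, was 10.2% at 1 kb and 32.9% at 5 kb. The core share was 59.5% with 7 fixed letters and 37.8% with 8.

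In alternatives chosen after seeing the data, the recurrence difference of -3.82 points (exact p = 0.0625) was -2.39 within 2 bp, -4.83 within 10 bp and -3.63 for pairs of 50 to 99 tags (each p = 0.03125, exact). It was -6.77 for pairs of at least 100 tags (p = 0.0625, exact) and -4.75 in the organ libraries alone (p = 0.125, the least that 4 allow). The stop before the core was 14 to 15 bp nearer in compact sites in all 4 alternatives tried, and the stop after it differed by -1 to 1 bp. These alternatives took subsets of the same pairs, or a stricter core, in the library whose distances the rule used. They are therefore descriptions and give no independent support. No paired analysis was possible because each condition had 1 library, so replicate numbers pair nothing. The tests instead set both classes of sites side by side within each library. The organ and smaller cell libraries had a median of 0 to 6 tags at compact sites outside dense bins.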
